A study of Mus musculus with 3 samples.

Results

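The cells described here are CD8 T cells of mouse pancreatic islets that carried transcripts of both Pdcd1, which encodes the inhibitory receptor PD-1, and Tcf7, which encodes the transcription factor TCF1, and none of 5 genes of more differentiated or activated cells. They are called progenitor-like CD8 T cells below. A cell was a member if its unique molecular identifiers (UMIs, each 1 captured transcript) showed at least 1 Cd3d, Cd3e or Cd3g, at least 2 Cd8a or Cd8b1, no Cd4, at most 1 Cd79a, at least 1 Pdcd1 and at least 1 Tcf7, with no Havcr2, Entpd1, Gzma, Gzmb or Tnfrsf4. This gave 232 members, 39, 73 and 120 in the 3 libraries, among 26142 cells that had at least 1000 UMIs and under 10% mitochondrial UMIs, of 26947 deposited. The islets came from female wild-type NOD mice, a strain that develops autoimmune diabetes spontaneously, and the study placed their age at 15 to 16 weeks in its methods and 14 to 16 weeks in a legend. Live CD45+ leucocytes were sorted, the islets of 2 or 3 mice were pooled for each library, and all libraries share this single untreated condition. The comparisons are therefore between sets of cells within the same libraries, and none is between treatments. The study asked how Eomes, Tigit and Cd226 are distributed among stem-like memory CD8 T cells. It used clusters of cells from these libraries, under stricter limits on cells, and flow cytometry, and not the gate used here. Under its limits on genes, UMIs and mitochondrial and ribosomal shares, 21, 8 and 36 members remained by library.

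TCF1 marks T cells that keep the capacity to renew themselves and to give rise to effector progeny under lasting antigen. In chronic infection, tumours and autoimmunity such cells carry PD-1, and their descendants lose TCF1 while gaining receptors such as TIM-3 (Havcr2) and CD39 (Entpd1) and granzymes. TIGIT is an inhibitory receptor and CD226 an activating one, and they compete for the ligand CD155. Eomes is a T-box transcription factor of memory and exhausted CD8 T cells.

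The members were chosen by the measured UMIs of the gate genes, which are therefore described without a test. The members held a median of 4 CD8 UMIs, 3 Pdcd1 UMIs, 2 Tcf7 UMIs and 17 Cd3 UMIs. Many sat near the gate. There were 108 members with exactly 1 Tcf7 UMI and 61 with exactly 1 Pdcd1 UMI, and 29 had no Cd8b1 UMI and were CD8 cells by Cd8a. Just outside lay 170 cells that met every condition except the Tcf7 UMI. Pooled over libraries, these showed a Cxcr6 level of 379 CPM, from 919, 223 and 246 CPM by library, so that the pooled value rested on replicate 1 (UMIs of a gene scaled to a common total of UMIs in each set after removal of Malat1, mitochondrial and ribosomal genes), while the members with 1 Tcf7 UMI showed 155 CPM. On the PD-1 side, 903 cells met every condition except the Pdcd1 UMI. Their pooled Eomes level was 116 CPM and that of the members with exactly 1 Pdcd1 UMI was 153 CPM. Pdcd1 lies at chr1:94038305-94052553 on the minus strand and Tcf7 at chr11:52252371-52283014 on the minus strand (mm10, GENCODE M21).

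Progenitor-like cells were a minority of the PD-1+ CD8 cells in every library. The members made up 14.6%, 19.3% and 24.5% of all cells with at least 2 CD8 UMIs, no Cd4 UMI and a Pdcd1 UMI, a mean of 19.5% ± 4.97 (SD, n = 3). The value in replicate 1 rested on 39 of 268 cells, with an exact 95% binomial interval of 10.6% to 19.4% that covers counting error only. With the Cd3 and Cd79a conditions also put on the denominator, 1028 PD-1+ CD8 T cells remained, and the members were 21.5% ± 4.67 of them. Of the rest, 25.1% ± 5.47 carried a Havcr2 or Entpd1 UMI, 25.1% ± 3.15 carried Tnfrsf4 (OX40) and no other excluded gene, with or without a Tcf7 UMI, 16.5% ± 2.73 lacked only the Tcf7 UMI, and 11.7% ± 1.44 carried Gzma or Gzmb without Havcr2 or Entpd1 (SD, n = 3 for each). The share depends on depth, because a cell with more UMIs is more likely to show any gate gene. When each cell was reduced to 2000 UMIs before gating, the members made up 11.4% ± 5.69 of the PD-1+ CD8 cells.

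**Figure D1:**
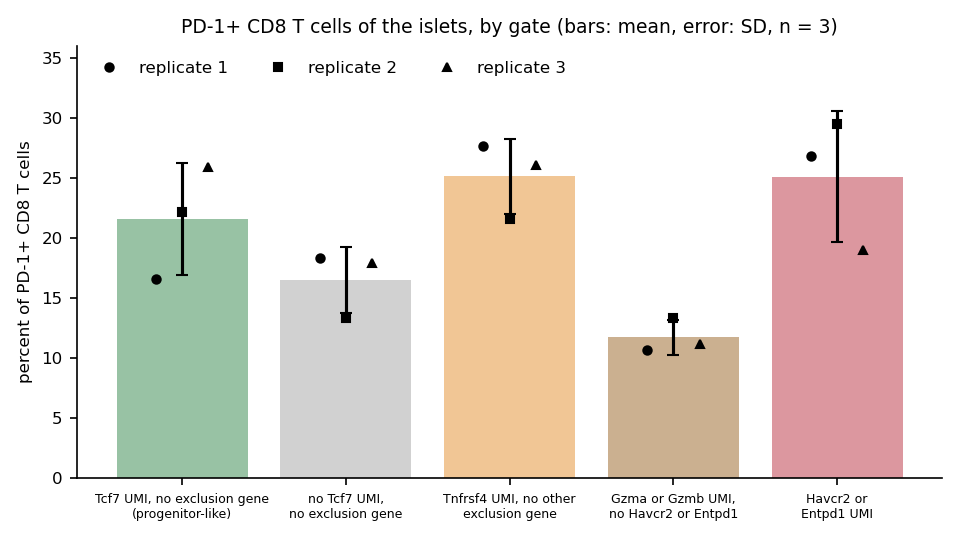
Percent of the 1028 PD-1+ CD8 T cells in each of 5 gates, with bars for the mean of 3 libraries, error bars for the SD and symbols for the libraries. The progenitor-like cells lie at 21.5% on average and are fewest in replicate 1.

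The libraries held 33851381, 74775394 and 80806452 UMIs, and median UMIs per member were 5143, 8443 and 6567.5, against 5810, 9002 and 7555.5 in the other PD-1+ CD8 cells. Replicate 1 stood apart. Its members had a summed level of 14 cell cycle genes of 10179.8 CPM, where those of replicates 2 and 3 had 3231 and 3701 CPM, and 13 of its 39 members carried a UMI of Mki67 or Top2a, against 5 of 73 and 13 of 120. The other PD-1+ CD8 cells of replicate 1 were high too, at 7802 CPM against 4256 and 4328 CPM. Among them, 74 of 229, 47 of 305 and 47 of 370 cells by library carried a UMI of Mki67 or Top2a. Results that rest on replicate 1 are given with and without it. No member shared its barcode with a cell of another library, while 59 barcodes were shared over all cells. Cells marked as likely doublets were 6.03% of the members and 14.6% of the other PD-1+ CD8 cells, 107 of which had more than 1 Cd79a UMI. They were 1.99% of the cells that lacked only the Pdcd1 UMI and 4.03% of the PD-1+ CD8 T cells with a Havcr2 or Entpd1 UMI. The 11 B cell markers summed to 424 to 1055 CPM in the members and to 2990.5 to 16731 CPM in the other PD-1+ CD8 cells. Of the myeloid markers, Csf1r, C1qa, C1qb and Adgre1 were at 0 in the members, and of the NK and gamma-delta T cell markers Ncr1, Klrb1c and Klra8 were at 0. In replicate 2, 1 member held 61 of the 63 Tyrobp UMIs, and a single member there held 21 of the 37 Trdc UMIs. The study states 2 independent experiments, and the labels do not say which libraries belong to which, so p-values cover only these 3 pools. The fits take out the level of each library. Their p-values measure how the difference between sets varies over the pools, and not how levels vary between pools.

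The first comparison set the members against all other PD-1+ CD8 cells. Members were higher in genes of naive and recirculating T cells and in Myb, and lower in tissue-homing receptors, in inflammatory chemokines and in Prdm1 and Id2. Of 9036 genes tested, 171 passed edgeR's quasi-likelihood test at an adjusted p under 0.05, a share of 1.89%, with 62 higher (0.686%) and 109 lower (1.21%), and 1117 (12.4%) had an unadjusted p under 0.05. Selecting cells that lack granzymes, Havcr2 and Entpd1 also selects against genes found in the same cells, so these counts describe how far apart the sets lie. With the same Cd3 and Cd79a conditions on the other cells, 155 genes passed. Without replicate 2 only 39 passed and without replicate 3 only 96, and without the library as a block 9 passed.

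Dapl1, a transcript of naive and memory T cells (chr2:59484653-59505020, plus strand, mm10), was at 284, 141 and 183 CPM in the members of replicates 1, 2 and 3, and at 55.4, 51.9 and 50.9 CPM in the other PD-1+ CD8 cells. The sets did not overlap, which held for 11.8% of all genes tested. The log2 fold change was 1.85 ± 0.19 (SE, adjusted p = 8.59e-06), and 1 member held 20.2% of the Dapl1 UMIs. Myb, a transcription factor of progenitor cells, was nearly level across the members at 304, 285 and 277 CPM, above 63.8, 127 and 122 CPM in the other cells (log2 fold change 1.39 ± 0.19, adjusted p = 0.000275). Dapl1 and Myb passed without any one of the libraries.

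Lef1, the close relative of TCF1, was at 169.7, 495 and 311 CPM in the members and at 58.4, 143 and 211 CPM in the other cells. The ranges overlapped, since the members of replicate 1 lay below the other cells of replicate 3, but each library showed the same direction (log2 fold change 1.22 ± 0.20, adjusted p = 0.00148). Without replicate 2 the adjusted p was 0.24. The same held for Nsg2, which codes for a vesicle trafficking protein, at 69.9, 94.2 and 59.3 CPM in the members and 18.5, 17.5 and 34.0 CPM in the others (log2 fold change 1.58 ± 0.28, adjusted p = 0.00367, 0.24 without replicate 2). Of the other named higher genes, Tdrp, Fos, Tnfrsf26, Patj and Ift80 had log2 fold changes between 1.06 and 1.29, and each lost its call without replicate 2. Fos, an AP-1 subunit that responds to cell handling, had 33.6% of its UMIs in 1 member. In all, 3 of the 10 named higher genes passed without replicate 2 and 6 without replicate 3.

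Taken as a list, 8 of 14 genes of naive and central memory cells and of tissue egress were higher and none was lower, with a median log2 fold change of 0.72 against -0.0046 for all genes. Beside Lef1 and Dapl1 they included the egress receptor S1pr1, its regulator Klf2, Klf3, Foxp1 and Txk. S1pr1 was at 109.8, 631 and 379 CPM in the members and 99.9, 227 and 211 CPM in the other cells (log2 fold change 1.03 ± 0.20, adjusted p = 0.00778, 0.45 without replicate 2). Replicate 1 scarcely separated the sets for S1pr1, and the list had 11 higher genes without that library, 2 without replicate 2 and 3 without replicate 3. S1pr1, Klf2, Klf3, Foxp1 and Txk each lost their calls without replicate 2 and without replicate 3. Only Myb was higher among 17 progenitor and stem-like genes. Slamf6, a surface receptor used with TCF1 to define progenitor cells, was at 145, 141 and 174 CPM in the members and 111, 111 and 130.5 CPM in the others. The members were higher in each library, but the difference did not pass (log2 fold change 0.36 ± 0.13, adjusted p = 0.219). Lower in the same list were Cd200, the CD30 ligand gene Tnfsf8 and Plagl1, none of which passed without replicate 3.

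The genes that were lower in the members were led by receptors and chemokines of effector and tissue cells. Cxcr6, the receptor for CXCL16 that holds T cells in inflamed tissue (chr9:123806475-123811760, plus strand, mm10), was at 69.9, 139 and 98.8 CPM in the members. In the other cells it was at 435, 575 and 506 CPM, so that every member value lay below every other value (log2 fold change -2.31 ± 0.14, adjusted p = 1.11e-08). Prdm1, which encodes the terminal differentiation factor Blimp-1, had 3 UMIs in all members together and lay at 37.7, 35.0 and 38.8 CPM in the other cells. Ccl3 and Ccl4 encode inflammatory chemokines. Ccl3 had 7 UMIs in the members, at 4.99, 5.24 and 7.18 CPM, against 54.6, 61.6 and 36.9 CPM (log2 fold change -2.98 ± 0.53, adjusted p = 0.00398). Ccl4 was at 29.9, 13.1 and 52.1 CPM in the members, with 40.0% of the UMIs in 1 member, and at 171, 279 and 164 CPM in the others (log2 fold change -2.56 ± 0.32, adjusted p = 0.000112).

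The calcium-binding protein gene S100a4 was at 205, 128 and 101 CPM in the members and 743, 455 and 454 CPM in the others (log2 fold change -1.997 ± 0.13, adjusted p = 2.24e-08). Mt1, a metallothionein, was at 20.0, 31.4 and 46.7 CPM against 68.4, 183 and 177 CPM (log2 fold change -2.13 ± 0.23, adjusted p = 2.09e-05). The inflammatory chemokine receptor Ccr2 and the death ligand Fasl had log2 fold changes of -1.57 and -1.38, and neither overlapped between the sets. Of the 10 named lower genes, each passed without replicate 1, and 9 passed without replicate 2 and 9 without replicate 3. The exception was Coq8a (log2 fold change -1.61), with adjusted p of 0.099 without replicate 2 and 0.056 without replicate 3. Ifitm2 (log2 fold change -2.96) had 62.5% of its 8 member UMIs in 1 cell, and its adjusted p was 0.28 among cells free of other-cell markers.

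**Figure D2:**
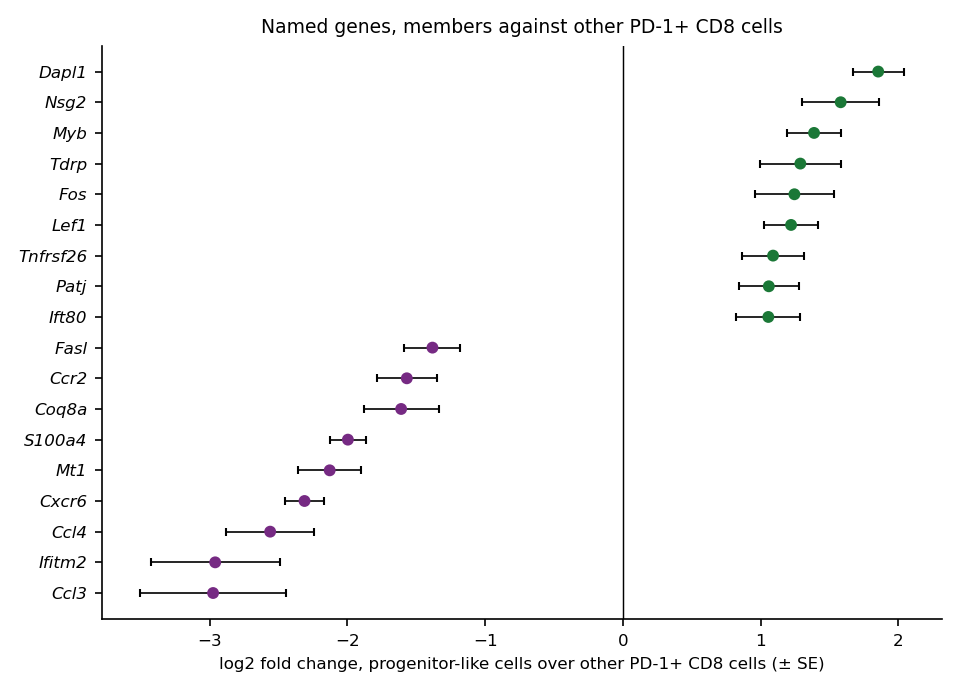
Log2 fold change of named genes between progenitor-like cells and the other PD-1+ CD8 cells, with points for the edgeR estimate and bars for its SE. Dapl1 lies farthest to the right at 1.85 and Ccl3 farthest to the left at -2.98.

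Id2, a regulator of effector differentiation, was lower in the members without overlap, at 225, 264 and 248 CPM in the members and 421, 493 and 477 CPM in the other cells (log2 fold change -0.94 ± 0.12, adjusted p = 0.000139). With Prdm1 and Maf, which had an adjusted p of 0.25 without replicate 2, it was 1 of 3 lower among 16 exhaustion and fate transcription factors, and none was higher. The inhibitory receptor Lag3 was at 94.8, 81.2 and 97.0 CPM in the members and 161, 239 and 223 CPM in the others (log2 fold change -1.25 ± 0.17, adjusted p = 0.00024). Without replicate 2 its adjusted p was 0.056. Lag3 and Lilrb4a were the 2 of 8 tested checkpoint receptors that passed, both lower, and neither passed without replicate 2. Of 19 tested cytotoxic and effector genes, Nkg7, Ccl3, Ccl4, Ccl5 and Fasl were lower, Ccl5 with an adjusted p of 0.30 without replicate 2. None of 14 cell cycle genes and none of 12 interferon response genes passed. B cell markers were lower for 10 of 11 genes, and with the Cd3 and Cd79a conditions on both sides none of the 6 still tested passed.

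The second comparison kept the condition of a Tcf7 UMI and changed that of a Pdcd1 UMI. This split also selects for or against genes found in the same cells as Pdcd1. Its counts therefore describe how far apart the sets lie, and not an effect of PD-1. The members were set against the 903 CD8 T cells that met every other condition but had no Pdcd1 UMI. A cell without a Pdcd1 UMI may still express Pdcd1, and PD-1- refers below to the UMI only. Compared with these 903 cells, the members were higher in Tox, Tox2, Eomes, Ikzf2 and Nrn1 and in several NK receptor genes, and lower in Lef1, Klf2, Satb1 and interferon-inducible GTPases. Of 9036 genes, 440 passed (4.87%), 258 higher (2.86%) and 182 lower (2.01%), and 1489 (16.5%) had an unadjusted p under 0.05. Without replicate 3 only 81 passed and without replicate 2 only 263, and 9 passed without the block. Median UMIs per cell were lower in the PD-1- cells, at 4706.5, 7007 and 6213, and 246 genes passed when every cell was thinned to 2000 UMIs after gating.

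Nrn1, which encodes neuritin (chr13:36725361-36735131, minus strand, mm10), was at 139.7, 209 and 278 CPM in the members and 32.8, 24.3 and 37.6 CPM in the PD-1- cells. All 3 member values were above all 3 others, as for 13.9% of the genes tested (log2 fold change 2.79 ± 0.18, adjusted p = 5.76e-08). Tnfsf4, the OX40 ligand gene, was at 84.8, 113 and 131 CPM against 25.8, 14.7 and 15.7 CPM (log2 fold change 2.74 ± 0.23, adjusted p = 1.56e-06). The HMG-box factor Tox, which maintains exhausted T cells, was at 334, 147 and 205 CPM in the members and 152, 44.1 and 40.4 CPM in the PD-1- cells. In replicate 2 the members lay just under the PD-1- cells of replicate 1, and in every library they were higher than their own partner (log2 fold change 1.74 ± 0.19, adjusted p = 2.1e-05). Its relative Tox2 had a log2 fold change of 2.24 ± 0.30 (adjusted p = 0.000118). These 4 genes passed without any one of the libraries.

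Penk, which encodes the precursor of enkephalins, was at 145, 89.0 and 311 CPM in the members and 56.3, 31.3 and 43.8 CPM in the PD-1- cells (log2 fold change 2.26 ± 0.37, adjusted p = 0.000871, 0.099 without replicate 3). The exchange factor gene Rasgef1a and the MAP kinase phosphatase gene Dusp4 were also higher, with log2 fold changes of 2.29 and 2.18 and adjusted p of 0.07 and 0.087 without replicate 3. S100a6 was at 1617, 306 and 203 CPM against 375, 103 and 19.8 CPM, with 22.7% of the member UMIs in 1 cell. The T cell receptor gamma constant gene Tcrg-C2, whose near copies in the same locus can share reads, was at 74.9, 31.4 and 95.2 CPM against 16.4, 8.95 and 10.95 CPM (log2 fold change 2.53 ± 0.28, adjusted p = 2.1e-05).

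Lower in the members was Lef1, at 549, 845 and 842 CPM in the PD-1- cells and 169.7, 495 and 311 CPM in the members (log2 fold change -1.27 ± 0.19, adjusted p = 0.000377). Klf2 had a log2 fold change of -1.17 ± 0.13 (adjusted p = 2.7e-05), from 917, 1219 and 1069.7 CPM in the PD-1- cells to 264, 707 and 487 CPM in the members. The sets did not overlap for Lef1 or for Klf2. The interferon-inducible GTPase genes Gbp2, Iigp1 and Tgtp1 were lower by log2 fold changes of -1.44, -1.502 and -1.32. Tgtp1 has a near copy that can share its reads. Gbp2 was at 199, 659 and 693 CPM in the PD-1- cells and 74.9, 314 and 210 CPM in the members, and passed without any one of the libraries, while Iigp1 and Tgtp1 lost their calls without replicate 3, as did Pik3ip1, an inhibitor of PI3 kinase, and Plaur, the urokinase receptor. Fam241a and Neto2 were lower by -1.57 and -2.19 and kept their calls.

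By list, 8 of 16 exhaustion and fate transcription factors were higher in the members and none lower, with a median log2 fold change of 0.80 against 0.010 for all genes. They were Tox, Tox2, Eomes, Id2, Zeb2, Maf, Ikzf3 and Nr4a2, and 4 of 16 were higher without replicate 3. Eomes was at 324, 243 and 433 CPM in the members and 157, 92.1 and 130.0 CPM in the PD-1- cells (log2 fold change 1.45 ± 0.18, adjusted p = 5.99e-05), with no overlap. Of 17 progenitor and stem-like genes 7 were higher, namely Bcl6, Xcl1, Ikzf2, Cd200, Icos, Cxcr3 and Kit. Ikzf2, which encodes Helios, was at 783, 500.0 and 774 CPM against 288, 157 and 114 CPM (log2 fold change 1.93 ± 0.21, adjusted p = 2.1e-05). Slamf6 did not pass (log2 fold change 0.26 ± 0.14, adjusted p = 0.366). The chemokine gene Xcl1 varied between libraries more than between the sets, at 1512, 91.6 and 408 CPM in the members and 431, 112 and 82.1 CPM in the PD-1- cells, and in replicate 2 it was lower in the members. Without replicate 3, Xcl1, Bcl6, Cxcr3 and Kit did not pass.

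Of 8 residency and retention genes, Cxcr6, Itga4, Rgs1 and Rgs2 were higher and Cd69 was lower. Cxcr6 was at 42.2, 62.0 and 57.5 CPM in the PD-1- cells (log2 fold change 0.89 ± 0.18, adjusted p = 0.0043, 0.13 without replicate 2 and 0.076 without replicate 3), below the members without overlap. Without replicate 2 only 1 gene of this list was higher, and without replicate 3 none was. Of 14 naive, central memory and egress genes 10 were lower, and of 19 cytotoxic and effector genes 6 were higher, namely Gzmk, Nkg7, Ccl5 and the NK receptor genes Klrk1, Klrc1 and Klre1. Without replicate 3 these counts were 4 and 5. Gzmk, the granzyme that the gate does not use, was at 139.7, 322 and 357 CPM in the members and 79.7, 123 and 172 CPM in the PD-1- cells (log2 fold change 1.11 ± 0.14, adjusted p = 9.2e-05). Lag3 was higher as well, at 35.2, 27.5 and 19.2 CPM in the PD-1- cells (log2 fold change 1.84 ± 0.24, adjusted p = 0.000113). Of 14 cell cycle genes 5 were higher, and this count was 1 without replicate 1. Mki67 was at 459, 5.24 and 35.9 CPM in the members, so that its mean rested on replicate 1, and its adjusted p moved from 0.0014 to 0.22 without that library. Of 12 interferon response genes, Gbp2, Gbp4, Ly6a and Iigp1 were lower, 1 of them without replicate 3. Of 8 tested immediate early and heat shock genes, Jun and Junb were lower, and the summed level of that list was 3678, 2613 and 2286 CPM in the members and 4581, 3147 and 3011 CPM in the PD-1- cells. Of 11 B cell markers, H2-Aa was higher and none was lower. Tyrobp and Trdc were higher, and as given above most of their UMIs were in single members of replicate 2.

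The third comparison kept the condition of a Pdcd1 UMI and changed the differentiation genes of the gate. As in the earlier comparisons, this also selects for or against genes found in the same cells. The counts therefore describe how far apart the sets lie. The members were set against the 248 PD-1+ CD8 T cells that carried a Havcr2 or Entpd1 UMI. All 12 tested genes of naive, central memory and egress character were higher in the members, and effector chemokines, Cxcr6, Prdm1 and Id2 were lower. Of 6407 genes, 585 passed (9.13%), 276 higher (4.31%) and 309 lower (4.82%), and 1444 (22.5%) had an unadjusted p under 0.05. Values of the sets did not overlap for 18.1% of these genes. Leaving out a library gave 281 to 392, with 281 without replicate 2 and 384 without replicate 3, and 36 passed without the block. The members are the same cells in all 3 comparisons, so their results are not independent. The Havcr2 or Entpd1 cells also held more B cell marker RNA, at 960 to 7076 CPM in sum. Their median UMIs per cell were higher, at 6644, 8789 and 8746.5 against 5143, 8443 and 6567.5 in the members.

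Dapl1 fell to 11.8, 1.42 and 13.6 CPM in the Havcr2 or Entpd1 cells (log2 fold change 4.42 ± 0.32, adjusted p = 1.58e-06). S1pr1 was at 44.7, 102 and 102 CPM there (log2 fold change 2.06 ± 0.21, adjusted p = 2.6e-05) and the lymph node homing receptor Ccr7 at 129, 256 and 191 CPM against 334, 1055 and 995 CPM in the members (log2 fold change 1.93 ± 0.18, adjusted p = 1.04e-05). Slamf6 separated these sets, with 54.1, 68.0 and 49.5 CPM against 145, 141 and 174 CPM (log2 fold change 1.35 ± 0.21, adjusted p = 0.000912). The repressor Bach2, which restrains effector differentiation, was at 64.9, 120.4 and 154 CPM in the members and 18.8, 31.2 and 44.3 CPM in the Havcr2 or Entpd1 cells (log2 fold change 1.78 ± 0.22, adjusted p = 0.000211). In all, 7 of 13 progenitor and stem-like genes were higher in the members (Slamf6, Bcl6, Bach2, Myb, Xcl1, Ikzf2 and Cxcr3) and Cd200 was lower. The named genes Tnfrsf26, Tdrp, Aff3 and Patj were higher by 2.59 to 3.09.

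Prdm1 (chr10:44437177-44528501, minus strand, mm10) was at 42.4, 76.5 and 104 CPM in the Havcr2 or Entpd1 cells, from 133 UMIs. From pooled UMIs this was 29.4 times the member level, with a 95% counting interval of 9.85 to 144. Cxcr6 was at 642, 1091 and 1218 CPM (log2 fold change -3.35 ± 0.16, adjusted p = 5.12e-08) and Mt1 at 75.3, 439 and 305 CPM (log2 fold change -3.11 ± 0.25, adjusted p = 3.95e-06). Ccl3, Ccl4 and Ifitm2 were lower in the members by -3.96, -3.40 and -3.16. Ccl5, the most abundant of these chemokine transcripts, was at 4925, 8872 and 12597 CPM in the members and 14793, 25388 and 28329 CPM in the Havcr2 or Entpd1 cells (log2 fold change -1.504 ± 0.08, adjusted p = 6.03e-08). Of 16 cytotoxic and effector genes 10 were lower and none higher. Each of the 12 named genes passed without any one of the libraries.

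Eomes and Tox did not separate the members from the Havcr2 or Entpd1 cells. Eomes was at 264, 305 and 374 CPM in the latter (log2 fold change -0.02 ± 0.15, adjusted p = 0.964), and Tox at 327, 149 and 288 CPM (log2 fold change -0.27 ± 0.15, adjusted p = 0.338). Lag3, at 162, 401 and 426 CPM, was higher in the Havcr2 or Entpd1 cells (log2 fold change -1.99 ± 0.22, adjusted p = 5.7e-05), and Id2 was at 520, 732 and 647 CPM (log2 fold change -1.44 ± 0.13, adjusted p = 1.09e-05). Of 15 transcription factors, Id2, Prdm1, Batf, Maf and Ikzf3 were lower in the members and the nuclear receptor genes Nr4a1, Nr4a2 and Nr4a3, which are induced early after stimulation, were higher. Fos and Junb, 2 of 6 tested immediate early and heat shock genes that also respond to cell handling, were higher as well, Junb with adjusted p of 0.051 to 0.16 without 1 library. Fos was at 79.8, 165 and 82.6 CPM in the members and 30.6, 31.2 and 23.9 CPM in the Havcr2 or Entpd1 cells (log2 fold change 1.90 ± 0.26, adjusted p = 0.00031). The part of cell handling in the Nr4a values was not tested. Batf, Ikzf3, Nr4a2 and Nr4a3 each lost the call without at least 1 library. Nr4a1 was at 139.7, 70.7 and 59.3 CPM against 54.1, 22.7 and 13.6 CPM (log2 fold change 1.55 ± 0.27, adjusted p = 0.00179). Of the cell cycle genes, 4 of 14 were lower in the members.

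Set side by side, the mean levels placed the members between the PD-1- Tcf7+ cells and the Havcr2 or Entpd1 cells for some genes and with one end for others. Lef1 averaged 745 ± 170 CPM in the PD-1- cells, 325 ± 163 in the members and 79.6 ± 48.3 in the Havcr2 or Entpd1 cells (SD, n = 3). Id2 ran the other way, at 141 ± 22.4, 246 ± 20.0 and 633 ± 107 CPM, with no overlap between neighbours. Dapl1 stayed at the level of the PD-1- cells, at 215 ± 79.9 and 203 ± 73.6 CPM, and was 56.6 ± 18.5 CPM in the cells that lacked only Tcf7. Eomes stayed at the level of the differentiated end, at 334 ± 94.98 CPM in the members, 332 ± 60.5 in the cells lacking only Tcf7 and 314 ± 55.6 in the Havcr2 or Entpd1 cells, against 126 ± 32.7 CPM in the PD-1- cells. Myb had its highest mean of the 6 sets in the members, at 289 ± 14.2 CPM, and its lowest member value of 277 CPM was above the highest of the PD-1- cells, 246 CPM. Slamf6 was 153 ± 18.1 CPM in the members and 159 ± 35.2 CPM in the cells with Tnfrsf4 and no other excluded gene, and these overlapped. Cxcr6 varied widely outside the members, and the cells lacking only Tcf7 had 919, 223 and 246 CPM.

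**Figure D3:**
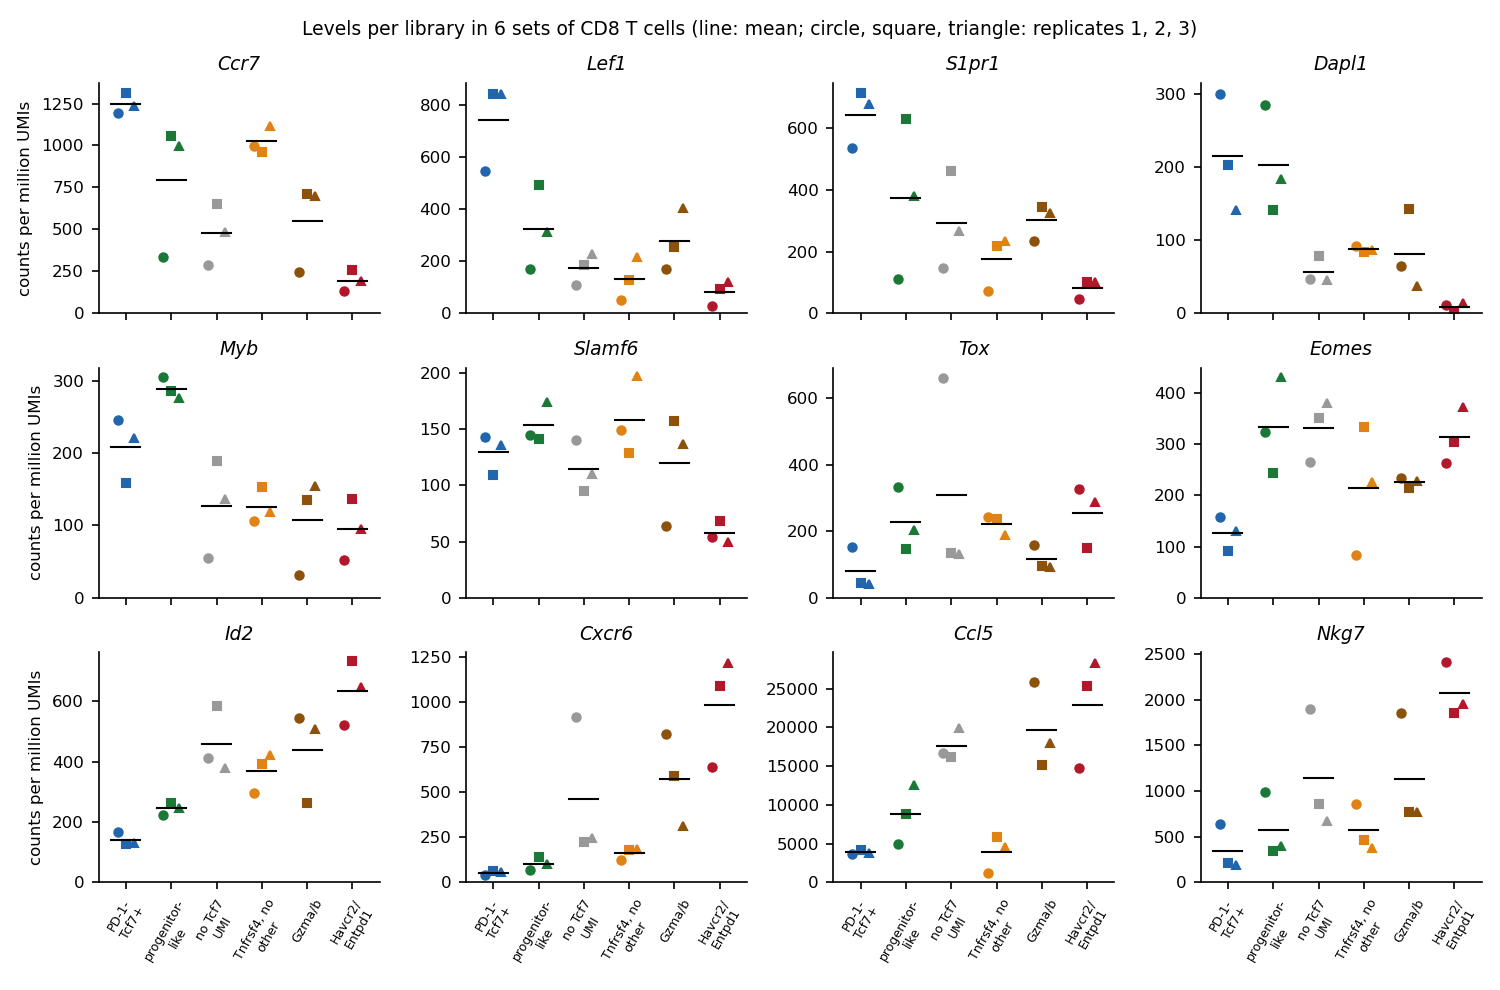
Level of 12 genes in CPM UMIs in 6 sets of CD8 T cells, with a symbol for each library and a line for the mean. Lef1 is lower in the members than in the PD-1- cells and lower again in the Havcr2 or Entpd1 cells, Eomes in the members is as high as in the PD-1+ sets, and Cxcr6 in the members lies above the PD-1- cells in each library and far below the Havcr2 or Entpd1 cells.

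The genes the study asked about were next counted as shares of cells. Every cell was thinned to 2000 UMIs, which left out 1 of the other PD-1+ CD8 cells and none of the members, and B cells, which should lack T cell transcripts, gave the level of free RNA. Eomes was seen in 38.5%, 15.1% and 31.7% of members, a mean of 28.4% ± 12.0 (SD, n = 3), against 20.2%, 22.6% and 24.3% of the other PD-1+ CD8 cells, a mean of 22.4% ± 2.09, and on average 29.9% of the Havcr2 or Entpd1 cells, 8.85% of the PD-1- cells and 0.174% of B cells. Tigit was seen in 12.8%, 1.37% and 5.83% of members, a mean of 6.67%, against 6.21% of the other PD-1+ cells, 2.03% of the PD-1- cells and 0.0215% of B cells. Cd226 was seen in 5.13%, 2.74% and 3.33% of members and on average in 4.24%, 3.54% and 0.116% of the other PD-1+, the PD-1- and the B cells. Eomes was above its level in PD-1- cells in all 3 libraries. Tigit was too, by 1.37% against 1.32% in replicate 2, and Cd226 was in 1 of 3. With 3 libraries the exact paired permutation test, two-sided, cannot give a p below 0.25, so no share passed. Against the other PD-1+ cells Eomes differed by 18.3, -7.55 and 7.34 percentage points by library, and by -0.106 on average without replicate 1. Replicate 1 set the high Tigit value, and without it the difference between members and other PD-1+ cells was -3.30 percentage points. In the fit over all genes the log2 fold changes against the other PD-1+ cells were 0.45 ± 0.16 for Eomes (adjusted p = 0.213), -0.06 ± 0.31 for Tigit (adjusted p = 0.968) and -0.21 ± 0.33 for Cd226 (adjusted p = 0.869).

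For comparison, Slamf6 was seen in 20.3% of members, 15.5% of other PD-1+ CD8 cells and 15.2% of B cells, which express this receptor themselves. Il7r, the IL-7 receptor of long-lived T cells, was seen in 22.3% of members, between the 39.5% of the PD-1- cells and the 5.74% of the Havcr2 or Entpd1 cells. Cxcr6 was seen in 8.14% of members, near the 5.02% of PD-1- cells and far from the 65.9% of Havcr2 or Entpd1 cells. Ccl5 was seen in 69.9% of members against 29.5% of PD-1- cells, 94.96% of the Havcr2 or Entpd1 cells and 3.19% of B cells.

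**Figure D4:**
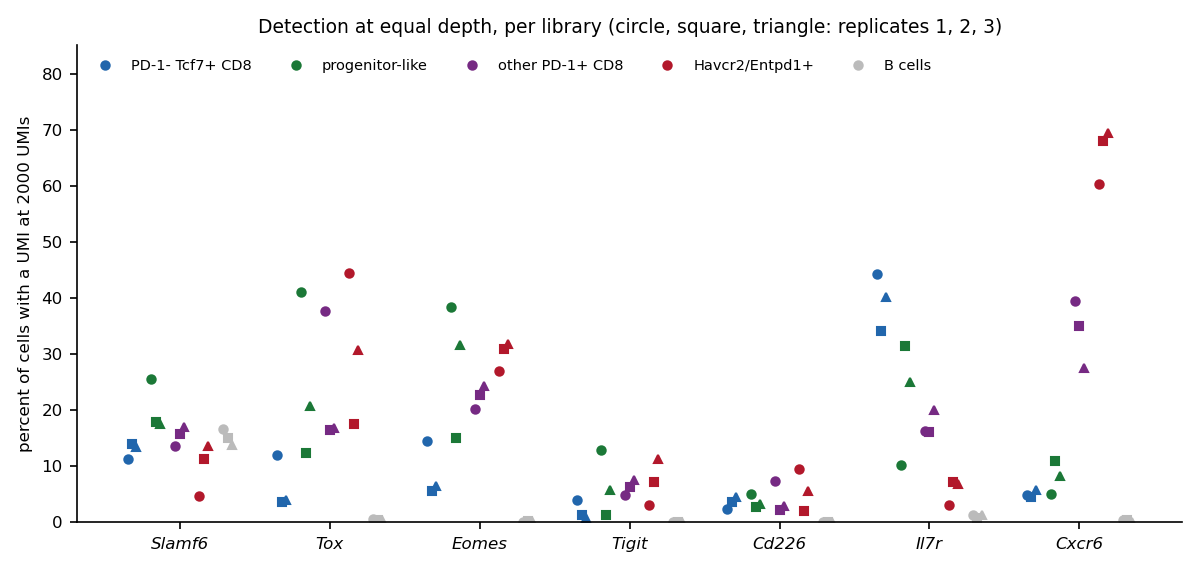
Percent of cells with a UMI of 7 genes after each cell was thinned to 2000 UMIs, by cell set and library. Members reach 38.5% for Eomes and 12.8% for Tigit in replicate 1, and B cells stay near 0 except for Slamf6.

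The members were not uniform. Of the 232, 124 carried an Eomes UMI and 108 did not, with 21, 27 and 76 against 18, 46 and 44 by library. A cell without an Eomes UMI may still express Eomes. When thinned to 2000 UMIs, 64 of the 124 cells still showed one. With and without Eomes refer below to the UMI only. Median UMIs were 4380, 8276 and 6567.5 in the cells with Eomes and 6529, 8508 and 6450.5 in those without, lower with Eomes in replicates 1 and 2 and slightly higher in replicate 3. Cells with an Eomes UMI were higher in Ccl5, Gzmk, NK receptor genes, Tox and Zeb2 and lower in S1pr1, Il7r, Klf2, Gbp2 and Gbp4. Of 3413 genes tested, 40 passed (1.17%), 26 higher (0.762%) and 14 lower (0.41%), and 309 (9.05%) had an unadjusted p under 0.05. Replicate 3 holds most of the cells with Eomes, and without it 0 genes passed edgeR's test, with 140 at an unadjusted p under 0.05. Without the block 0 passed and 155 had an unadjusted p under 0.05. DESeq2 called 7 genes, but gave no adjusted p for 2189 of the 3413. The split is therefore given by its values in each library.

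Ccl5 was at 6731, 15135 and 15228 CPM with Eomes and 3389, 5025 and 7064 CPM without, higher in each library although replicate 1 with Eomes lay below replicate 3 without (log2 fold change 1.22 ± 0.12, adjusted p = 2.62e-07). Gzmk was at 271, 550.4 and 427 CPM with Eomes and 27.7, 182 and 212 CPM without (log2 fold change 1.52 ± 0.27, adjusted p = 0.00292). The activating receptor gene Klrk1, which encodes NKG2D, was at 369, 289 and 631 CPM against 148, 114 and 156 CPM (log2 fold change 1.61 ± 0.25, adjusted p = 0.000903). Gzmk and Klrk1 did not overlap between the cells with and without Eomes, as for 10.6% of all genes tested. The lectin-like receptor gene Klre1 stood at 239, 151 and 270.3 CPM against 73.9, 42.3 and 44.6 CPM (log2 fold change 2.06 ± 0.33, adjusted p = 0.000948). Cd7, an immunoglobulin family receptor, was nearly level at 304, 323 and 313 CPM with Eomes, and at 166, 93.0 and 33.4 CPM without (log2 fold change 1.86 ± 0.32, adjusted p = 0.0024). Of 11 cytotoxic and effector genes 4 were higher, namely Gzmk, Ccl5, Klrk1 and Klre1. Rasgef1a, E130308A19Rik, Sec14l1 and Gm20069 were higher by 1.86 to 2.49. Markers of CD4 T cells and of NK and gamma-delta T cells lay on the side without Eomes. Those of B and myeloid cells had no common direction over the libraries. The 11 B cell markers summed to 445, 440 and 1060 CPM with Eomes and 406, 1433 and 396 CPM without. The myeloid markers summed to 217, 310 and 204 CPM with Eomes and 240, 511 and 189 CPM without. The 6 CD4 T cell markers summed to 195, 199.5 and 223 CPM with Eomes, where Foxp3 and Zbtb7b were at 0, and 526, 292 and 339.8 CPM without. The 6 NK and gamma-delta T cell markers summed to 0, 6.88 and 2.65 CPM with Eomes, where only Trdc was above 0, and 9.24, 186 and 83.6 CPM without, and 35 of 37 Trdc UMIs and all 63 Tyrobp UMIs were in cells without Eomes. Their part in the split was not tested.

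Tox was at 489, 227 and 273 CPM with Eomes and 203, 97.2 and 61.3 CPM without (log2 fold change 1.497 ± 0.28, adjusted p = 0.00345), and with Zeb2 (log2 fold change 1.497 ± 0.30, adjusted p = 0.00545) it was 1 of 2 that passed among 11 transcription factors. The egress receptor S1pr1 was at 97.7, 296 and 233 CPM with Eomes and 120.1, 837 and 685 CPM without (log2 fold change -1.39 ± 0.23, adjusted p = 0.0019). Il7r was at 130.3, 158 and 257 CPM against 111, 748 and 702 CPM (log2 fold change -1.503 ± 0.27, adjusted p = 0.00295), and in replicate 1 it was not lower in the cells with Eomes. Klf2, which drives S1pr1, had a log2 fold change of -1.01 ± 0.21 (adjusted p = 0.00787), and Gbp2, Gbp4, Gpr65, Fam241a, Gm26917 and the cytokine signalling inhibitor Socs1 were lower by log2 fold changes of -1.32 to -1.83. Gbp2 and Gbp4 were the 2 of 11 interferon response genes that passed, and none passed without replicate 2. Slamf6 (log2 fold change -0.15 ± 0.28, adjusted p = 0.949) and the other 10 tested progenitor and stem-like genes did not pass.

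Tigit and Cd226 were too sparse for this fit, and their counts are given instead. A Tigit UMI was found in 24 of 124 members with Eomes and in 10 of 108 without, or 19.4% (exact 95% binomial interval 12.8% to 27.4%) and 9.26% (4.53% to 16.4%). A Cd226 UMI was found in 4 of 124 with Eomes and in 16 of 108 without, or 3.23% (0.886% to 8.05%) and 14.8% (8.71% to 22.9%). These intervals pool the cells of all libraries and do not cover the spread between libraries. By library the Cd226 counts were 0 of 21, 2 of 27 and 2 of 76 with Eomes and 4 of 18, 5 of 46 and 7 of 44 without, lower with Eomes in each. The Tigit counts were 6 of 21, 4 of 27 and 14 of 76 with Eomes and 6 of 18, 3 of 46 and 1 of 44 without. Replicate 1 thus went the other way, and replicate 3 differed most. When thinned to 2000 UMIs, 6 of 64 members with an Eomes UMI had a Tigit UMI (3.52% to 19.3%), and 7 of 168 without (1.69% to 8.40%). In that count replicate 2 went the other way. At 2000 UMIs a Cd226 UMI was found in 0 of 64 members with an Eomes UMI, which allows a share of cells with a UMI of up to 4.69% by 3 counts of the total and no limit on cells expressing the gene, and in 8 of 168 without. Pooled, the Cd226 level without Eomes was 3.81 times that with Eomes, with a counting interval of 1.68 to 9.74 that does not cover the spread between libraries. In the fit without a filter on low counts the log2 fold change of Cd226 was -2.01 ± 0.61 and did not pass (adjusted p = 0.126). Both Tigit and Cd226 were found in 2 members.

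**Figure D5:**
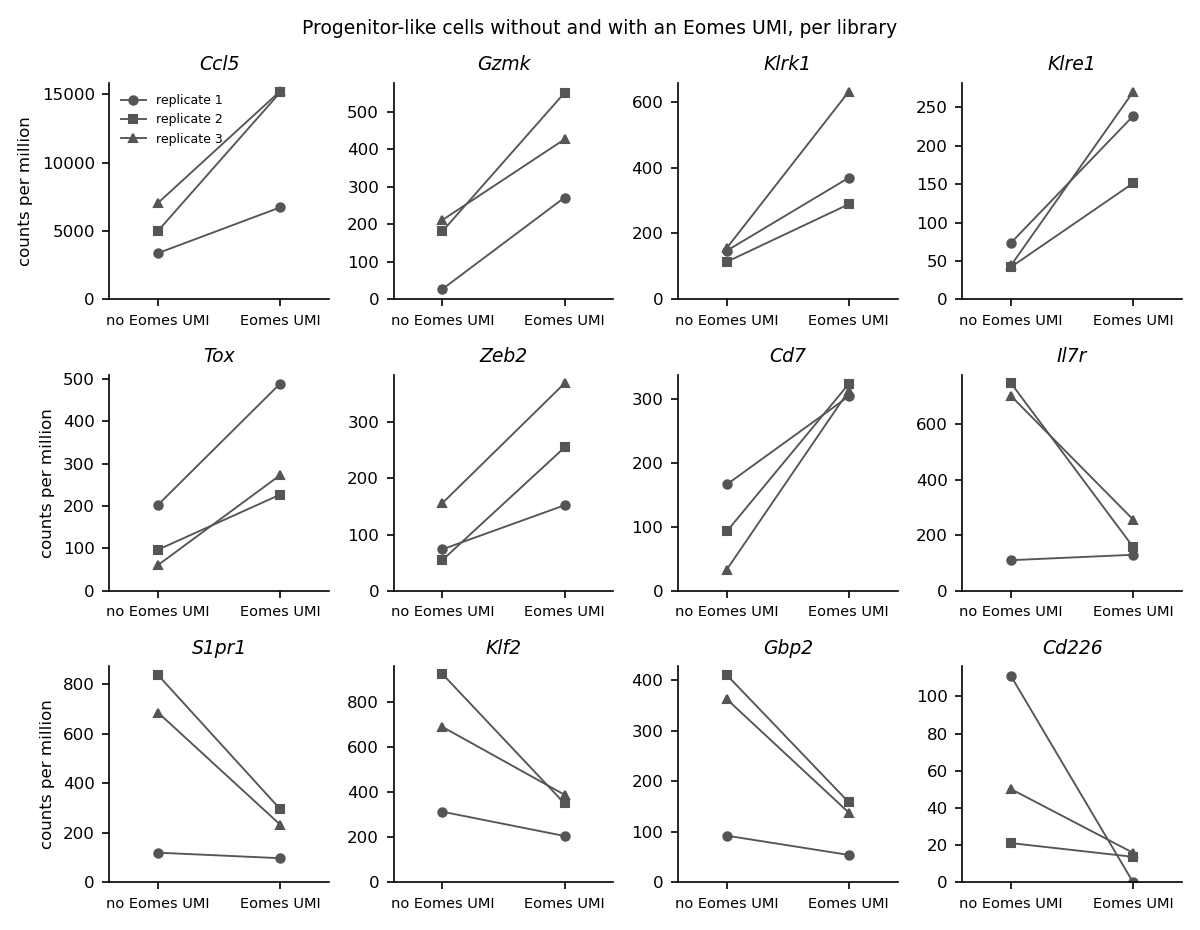
Level of 12 genes in CPM UMIs in progenitor-like cells without (left) and with (right) an Eomes UMI, with a line for each library. Ccl5, Gzmk, Klrk1, Klre1, Tox, Zeb2 and Cd7 are higher with Eomes in all 3 libraries, Cd226 is lower in all 3, and Il7r is not lower in replicate 1.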

How the data were processed

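Single-cell RNA-seq was made by the authors from 3 libraries of sorted islet CD45+ cells with 10x 3' chemistry, and the deposited values are raw UMI counts per gene and cell from Cell Ranger 6.0.1 on mm10, for 32285 genes. Cells with at least 1000 UMIs and under 10% mitochondrial UMIs were kept. In each library the 7.6% of deposited cells with the highest doublet scores from scanpy 1.11.5 were marked as likely doublets, a share set in advance. They were not removed, and removing them was an alternative. UMIs were summed per cell set and library, with Malat1, mitochondrial and ribosomal genes (39.1% of UMIs) left out. Sums were compared with the quasi-likelihood test of edgeR 4.0.16 (R 4.3.3), with TMM scaling, filterByExpr and Benjamini-Hochberg adjustment over all genes tested, and the 14 gate genes received no test. The library was a block, because the sets in a library come from the same mice and suspension. Deviations of sets from the same library correlated at 0.24 to 0.56 (9 pairs) and those from different libraries at -0.49 to 0.32 (18 pairs). DESeq2 1.42.0 was an alternative. In simulated data for the comparison with the other PD-1+ CD8 cells, 180 of 200 genes changed by a log2 fold change of 2 were found among 8845 genes tested, with 6 false calls, and smaller changes were not simulated. The simulated counts had the same spread for every gene and a library effect equal in all sets. The share found is therefore not the sensitivity in the real data. Named genes were, per direction, those called with the largest change, a mean of at least 50 CPM in either set and the same direction in all 3 libraries (10, 8, 6 and 6 for the comparisons in order), and for the first comparison also called against the cells under the same Cd3 and Cd79a conditions. Other genes named are members of the lists. The members and lists were chosen with earlier results of these data known. Intervals are exact binomial or Poisson and cover counting error only. Positions are from GENCODE M21. Some genes that met the rule are not reported here.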

Additional observations from a re-analysis of the deposited data

How the results depend on the processing

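Counts of genes past the test depended on the library block, on single libraries, on the tool and on the depth and number of cells. Against the other PD-1+ CD8 cells (171 genes), there were 90 with DESeq2, 355 with no filter on low counts, 9 with no replicate block, 14 under the study's limits on cells (19 with at least 5 cells per library), 64 when thinned to 2000 UMIs after the gate and 6 when thinned before it (at least 5 cells), and 39 to 222 without 1 library. Against the PD-1- cells (440) these were 282 with DESeq2, 9 with no replicate block, 167 and 215 under the study's limits, 246 and 32 when thinned, and 81 to 446 without 1 library. Against the Havcr2 or Entpd1 cells (585) these were 178 with DESeq2, 36 with no replicate block, 55 and 75 under the study's limits, 210 and 35 when thinned, and 281 to 392 without 1 library. For the Eomes split (40) they were 7 with DESeq2, 64 with no filter, 0 with no replicate block, 7 under the study's limits (at least 5 cells), 23 when thinned after the gate, and 0 to 72 without 1 library. The cause was not tested. Fewer genes entered the thinned and limited fits, and fewer cells entered those thinned before the gate and those under the study's limits. DESeq2 gave no adjusted p for 1120 of 6407 genes against the Havcr2 or Entpd1 cells and 2189 of 3413 in the Eomes split. With mitochondrial and ribosomal genes kept, 269 higher and 279 lower genes passed against the PD-1- cells, and with cells free of other-cell markers the split against the other PD-1+ cells was 84 higher and 85 lower. The share of PD-1+ CD8 cells was 11.4% when thinned before the gate. The fits thinned after the gate and those with at least 5 cells per library were chosen after seeing the data.

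Differences in thinned share from the other PD-1+ CD8 cells changed sign with 1 library or depth, in percentage points. Without 1 library they ran from -0.106 to 12.8 for Eomes, -3.30 to 3.13 for Tigit, -0.984 to 0.403 for Cd226, -0.379 to 3.69 for Tox, -0.486 to 10.2 for Il7r and -6.34 to 1.13 for Ccl5. Unthinned they were -0.964 for Tigit and -0.349 for Tox, and at 1500 UMIs 0.948 for Ccl5. The log2 fold change of Patj against the other PD-1+ cells was -0.24 under the study's limits and -0.0040 with at least 5 cells. With at least 10 cells per library, the fits thinned before the gate could not be made for any comparison, nor those under the study's limits for the Eomes split, and with at least 5 cells the Eomes split thinned before the gate could not be made.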
